A study of Mus musculus with 20 samples.

Results

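Transcripts of 7 genes of cholesterol synthesis, Hmgcs1, Idi1, Fdft1, Sqle, Lss, Cyp51 and Srebf2, were followed in 20 mouse liver RNA-seq libraries. They are the genes of the deposited count table whose Ensembl identifiers carry these symbols in GENCODE M21, 7 of the 21780 genes listed, and all 7 passed the filter of at least 10 counts over the libraries. Male C57Bl/6J mice, 8 weeks old at the start, ate a high-fat diet (HFD, 42% of kcal from fat) for 12 weeks, and there was no group on another diet. The 4 groups of 5 mice were HFD control (corn oil vehicle), HFD + Aroclor (Aroclor 1260, a commercial mixture of mostly non-dioxin-like polychlorinated biphenyls or PCBs, 20 mg/kg), HFD + PCB 126 (20 µg/kg of a single congener that acts as dioxin does) and HFD + Aroclor + PCB 126 (the 2 doses together, called the combined exposure here). Each mouse received a single gavage at 10 weeks of age, the methods give 10 weeks of exposure and the labels 12 weeks. By the methods, all mice were fasted for about 6 h before they were killed. The comparisons ask how a single dose of each PCB type, alone or together, left the liver transcriptome on this diet. The libraries came from polyadenylated RNA of whole liver, so fewer cells of a type and less RNA per cell cannot be told apart.

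As background, SREBP2 (the product of Srebf2) is a membrane-bound transcription factor of the endoplasmic reticulum. When sterols are low, the escort protein SCAP carries it to the Golgi, where proteases release its active part. It then binds sterol regulatory elements, often next to NF-Y sites, in the genes of cholesterol synthesis and uptake. When sterols are plentiful, INSIG proteins hold SCAP and SREBP2 in the endoplasmic reticulum, and transcription of the pathway falls. In liver, this loop sets how much cholesterol is made and how much is taken up from blood.

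The 7 genes span the pathway. HMGCS1 (Hmgcs1, ENSMUSG00000093930, chr13:119690379-119708260 of GRCm38, plus strand) makes HMG-CoA, an early intermediate of the pathway. IDI1 (Idi1, ENSMUSG00000058258, chr13:8885501-8892451, plus strand) isomerizes the isoprenoid units. FDFT1 (Fdft1, ENSMUSG00000021273, chr14:63145150-63179578, minus strand) is squalene synthase, the first enzyme committed to sterols. SQLE (Sqle, ENSMUSG00000022351, chr15:59315077-59331192, plus strand) oxidizes squalene, and LSS (Lss, ENSMUSG00000033105, chr10:76531588-76557138, plus strand) closes the ring to lanosterol. CYP51 (Cyp51, ENSMUSG00000001467, chr5:4081145-4104746, minus strand) removes a methyl group from lanosterol. Srebf2 (ENSMUSG00000022463, chr15:82147181-82205379, plus strand) encodes the transcription factor and is itself a known target of it. All 7 are annotated as protein-coding.

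Promoter sequence from RefSeq (GRCm38.p6), 250 bases before to 50 after the gene's start, was matched for 5 of the 7 genes; Fdft1 and Sqle had no entry. The letters TCACNCCAC, a form of the sterol regulatory element searched on both strands, occurred in 1 of these 5 windows, that of Hmgcs1, and in 1.24% of all 32851 promoter windows of this length. The NF-Y box CCAAT, also searched on both strands and shown in capitals in either direction, occurred in 5 of 5 windows and in 37.4% of all. The GC box GGGCGG occurred in 5 of 5 and in 35.7%, and the E-box CACGTG in 0 of 5 and in 7.15%. The windows of the only match to the element, of the transcription factor's own gene and of the member with the largest difference between groups are shown 5′ to 3′ on the gene's strand, with the sterol element and NF-Y boxes in capitals. Their coordinates are chr13:119690101-119690400 for Hmgcs1, chr15:82147019-82147318 for Srebf2 and chr13:8885356-8885655 for Idi1, all on the plus strand.
Hmgcs1: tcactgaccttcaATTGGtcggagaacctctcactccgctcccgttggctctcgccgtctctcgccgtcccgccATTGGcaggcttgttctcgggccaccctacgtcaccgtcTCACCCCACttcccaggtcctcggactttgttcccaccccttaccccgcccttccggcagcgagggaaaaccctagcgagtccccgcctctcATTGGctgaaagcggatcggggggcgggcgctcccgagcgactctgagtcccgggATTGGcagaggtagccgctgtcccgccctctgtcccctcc
Srebf2: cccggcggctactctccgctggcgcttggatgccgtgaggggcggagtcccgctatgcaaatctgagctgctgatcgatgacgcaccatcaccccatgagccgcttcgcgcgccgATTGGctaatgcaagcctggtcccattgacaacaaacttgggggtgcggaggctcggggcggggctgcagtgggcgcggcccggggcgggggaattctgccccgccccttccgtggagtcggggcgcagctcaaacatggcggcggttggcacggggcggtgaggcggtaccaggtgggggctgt
Idi1: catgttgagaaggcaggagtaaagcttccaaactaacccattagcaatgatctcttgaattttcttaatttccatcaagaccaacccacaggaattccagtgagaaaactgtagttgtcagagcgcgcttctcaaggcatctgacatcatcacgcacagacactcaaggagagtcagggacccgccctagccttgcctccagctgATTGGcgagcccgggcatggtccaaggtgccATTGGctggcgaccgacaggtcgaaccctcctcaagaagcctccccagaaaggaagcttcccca
In the Hmgcs1 window the element began 137 bases before the start, between NF-Y boxes that began 176 and 45 bases before it. A match describes these letters and was not tested as a binding site, and no match says only that the letters are not in this window.

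The depth was 21836506 to 36854887 counts per library (median 30005986). The summed level of 6 hepatocyte marker genes was 69180 to 99140 CPM (counts scaled to a common library total) in the 20 libraries. Most of this sum was Alb (mean 63440 CPM in HFD control), so it says little about the other markers. With the combined exposure, 4 of these 6 genes fell in edgeR, beside 32.8% of all genes called. Among them Apoc3 fell by 0.81 on the log2 scale (adjusted p = 0.00208) and Apoa1 by 0.78 (adjusted p = 0.00193). After GC correction 2 still passed, Ttr (adjusted p = 0.0103) and Serpina1a (adjusted p = 0.0449), beside 10.9% of all genes. Apoc3 and Apoa1 no longer passed. Of 5 stellate cell markers 3 rose and 1 fell. Their summed level was 135 to 265 CPM in HFD control and 271 to 346 CPM with the combined exposure, without overlap. Of single genes, 18.8% had no overlap in this comparison. Adgre1 alone of 6 macrophage markers passed and rose (log2FC 0.82, adjusted p = 0.0248). Of 5 lymphocyte markers only the leukocyte marker Ptprc passed and rose (0.78, adjusted p = 0.00818). Of 5 endothelial markers only Stab2 passed and fell by 0.50 (adjusted p = 0.00770). The other markers of each of these lists had values of both signs, so these genes do not stand for their lists. After GC correction 1 stellate marker and Stab2 passed. The part of these differences in the results of the combined exposure was not tested. Libraries differed in how counts depended on the GC content of transcripts. The slope of log2 CPM per 10 points of GC content, relative to the mean library, was 0.00801 to 0.454 in HFD control, -0.0997 to 0.132 in HFD + Aroclor, -0.0932 to 0.368 in HFD + PCB 126 and -0.616 to -0.12 with the combined exposure, so the control and combined libraries did not overlap. Between these 2 groups, a bias of the libraries and a difference by exposure that follows GC content cannot be told apart. GC correction takes out both, so a corrected value is not necessarily the truer one. GC-corrected values of the 7 genes stand beside those results whose call or size they changed most.

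HFD control replicate 4 and combined exposure replicate 4 held adrenal gland transcripts. Star, which delivers cholesterol to the steroid-making enzymes, was at 601 and 669 CPM in these libraries and at 0.799 to 1.99 CPM in the other 18. Cyp11b1, the enzyme of the last step of glucocorticoid synthesis, was at 229 and 220 CPM and at most 0.141 CPM elsewhere. Th, the first enzyme of catecholamine synthesis in the medulla, was at 78.6 and 17.1 CPM and at most 0.0381 CPM elsewhere. The summed level of 8 cortex markers was 2261 and 1955 CPM in these libraries and 2.46 to 4.62 CPM in the others. The hepatocyte marker sum was 86530 and 71120 CPM there, inside the range of the rest. Steroid-making tissue is itself rich in cholesterol synthesis genes, so values without these libraries are given as well for the members and lists they moved most.

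Per kilobase of exon, the order of the 7 genes was Fdft1, Hmgcs1, Cyp51, Srebf2, Lss, Sqle and Idi1. The median FPKM over the 20 libraries was 14.3 for Fdft1 and 12.2 for Hmgcs1, and their ranges of 8.30 to 17.6 and 7.31 to 15.4 FPKM overlapped. Cyp51 had a median of 3.40 FPKM and Srebf2 of 2.63 FPKM, and these ranges overlapped as well. Lss followed at 1.15 FPKM (1.03 to 1.29), below every Srebf2 library (1.85 to 3.11) and above every Sqle library. Sqle had a median of 0.164 FPKM and Idi1 of 0.0750 FPKM, with overlapping ranges. The genes at the low end had few reads, 9 to 57 counts per library for Sqle and 2 to 20 for Idi1, which limits any comparison of them. Lss was the steadiest, with a highest level 1.26 times its lowest, against 6.74 times for Sqle and 6.72 times for Idi1.

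**Figure D1:**
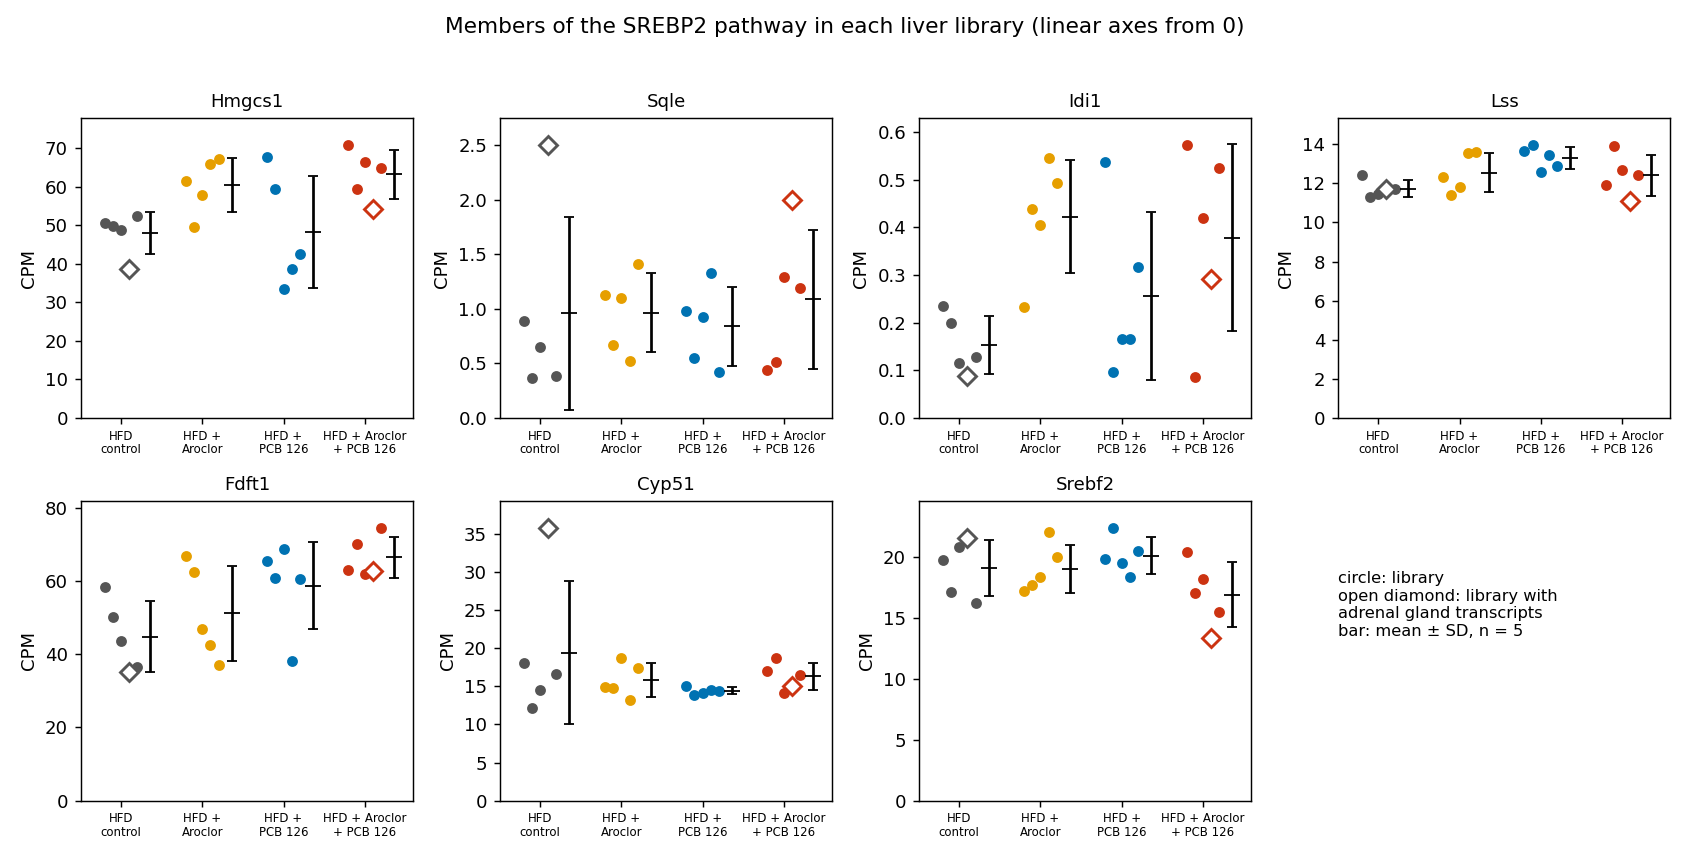
Level of each of the 7 genes in CPM (vertical axes, linear, from 0) in each library of the 4 groups. Circles are libraries, open diamonds the 2 libraries with adrenal gland transcripts, and bars the mean and SD of all 5 libraries. Fdft1 lies between 61.8 and 74.5 CPM in every combined-exposure library, above all 5 control libraries, while the Sqle and Cyp51 levels of HFD control replicate 4 stand far above the rest of that group.

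Fdft1 was the only member past the threshold in edgeR over all libraries, and only with the combined exposure. In HFD control, replicates 1 to 5 had 58.4, 50.1, 43.6, 35.1 and 36.6 CPM. In HFD + Aroclor, they had 66.7, 62.5, 46.9, 42.6 and 36.9 CPM. With PCB 126, they had 65.5, 60.8, 68.8, 38.3 and 60.4 CPM, and with the combined exposure 63.1, 70.1, 61.8, 62.8 and 74.5 CPM. All 5 combined-exposure libraries were above all 5 controls, while the groups with a single exposure overlapped the controls. Fdft1 rose from 44.8 ± 9.70 CPM (SD, n = 5) in HFD control to 66.4 ± 5.59 CPM with the combined exposure, a log2 fold change (log2FC) of 0.57 (SE 0.17, 95% interval 0.21 to 0.93, edgeR quasi-likelihood adjusted p = 0.0166). With Aroclor the log2FC was 0.19 (SE 0.17, adjusted p = 0.561) and with PCB 126 it was 0.39 (SE 0.17, adjusted p = 0.302), and these comparisons share the control mice. The test of interaction gave -0.01 (SE 0.24, adjusted p = 0.991), so no departure from the sum of the single exposures was detectable at this spread. After GC correction, the combined-exposure value was 0.69 (adjusted p = 0.0142). Without both libraries with adrenal transcripts it was 0.50 and no longer passed the threshold (adjusted p = 0.0505), and over all alternatives the adjusted p ranged from 0.00361 to 0.393. Fdft1 shares 25.4% of its 75-base windows with the neighbouring, oppositely transcribed Ctsb (a lysosomal protease) or the gene Gm6781, and whether the counting used strand is not given in the sources used here. Ctsb itself had a log2FC of 0.03 (adjusted p = 0.869).

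The 1 of 7 members called with the combined exposure stands against 32.8% of all 15522 genes tested. After GC correction the count was 1 of 7 against 10.9%, and without both libraries with adrenal transcripts 0 of 7 against 30.4% of 15116 genes. With GC correction and without these libraries it was again 1 of 7, here Srebf2 in place of Fdft1, against 6.99%. The median log2FC of the 7 genes was 0.21, beside -0.001 over all genes. With Aroclor, 0 of 7 members passed in edgeR (2 at an unadjusted p under 0.05), beside 0.0% of all genes. DESeq2 called 0 members as well, beside 135 of 15522 genes. It gave no adjusted p for Sqle and Idi1, and Idi1 had a DESeq2 log2FC of 1.40 (unadjusted p = 0.00969). With PCB 126, 0 of 7 passed in both tools (3 unadjusted), beside 0.116% of all genes in edgeR and 320 genes in DESeq2.

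**Figure D2:**
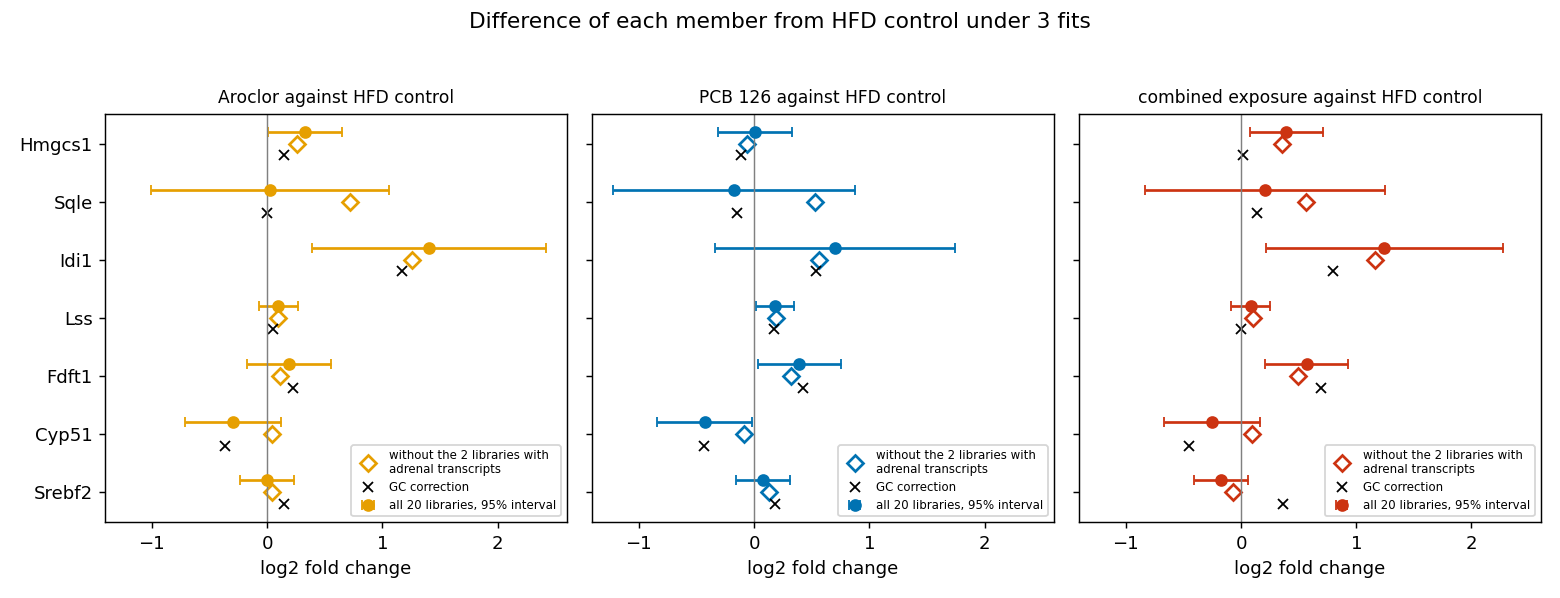
Log2 fold change of each of the 7 genes (horizontal axes) against HFD control for HFD + Aroclor, HFD + PCB 126 and the combined exposure. Filled circles with bars are the values and 95% intervals from all 20 libraries, open diamonds the values without the 2 libraries with adrenal gland transcripts, and crosses the GC-corrected values. Cyp51 and Sqle shift to the right without these libraries, and with the combined exposure Srebf2 moves from -0.18 to 0.36 and Hmgcs1 from 0.39 to 0.01 under GC correction.

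Hmgcs1 was higher in every combined-exposure library than in any control. The control libraries had 50.5, 49.8, 48.8, 38.6 and 52.4 CPM, and the combined-exposure libraries 70.7, 59.5, 66.4, 54.2 and 64.9 CPM. With Aroclor the values were 61.4, 49.6, 57.8, 65.9 and 67.2 CPM, and 4 of the 5 lay above the controls. With PCB 126 they were 67.6, 59.2, 33.6, 38.5 and 42.6 CPM, so that group fell on both sides of the controls and had the widest spread of the 4 (48.3 ± 14.5 CPM, SD, n = 5). Hmgcs1 and Fdft1 were the 2 of 7 members whose combined-exposure and control libraries did not overlap, a pattern held by 18.8% of all genes. The log2FC of Hmgcs1 with the combined exposure was 0.39 (SE 0.15), and it did not pass the threshold (adjusted p = 0.0545). It passed when PCB 126 replicate 1 or replicate 3 was left out of the shared spread (adjusted p = 0.0286 and 0.0326), and over all other alternatives the adjusted p ranged from 0.0274 to 0.970. DESeq2 called it (adjusted p = 0.0327). After GC correction its log2FC was 0.01 (adjusted p = 0.970), and its transcript has 43.1% GC. Pearson's r of its log2 CPM with the GC slope of the library, as a description, was -0.537 over the 20 libraries and -0.215 around the group means. Hmgcs1 shares 12.2% of its windows with an antisense transcript, Gm48342.

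Idi1 had the largest difference of the 7 and the fewest reads. The control libraries had 0.235, 0.200, 0.114, 0.0877 and 0.129 CPM, which stand for 9, 7, 3, 2 and 3 counts. With Aroclor the values were 0.233, 0.438, 0.404, 0.546 and 0.492 CPM, or 7, 15, 14, 20 and 16 counts. The control and Aroclor groups overlapped only through Aroclor replicate 1 and HFD control replicate 1. With PCB 126 the values were 0.537, 0.0967, 0.166, 0.166 and 0.317 CPM, and with the combined exposure 0.572, 0.0852, 0.420, 0.291 and 0.525 CPM, and both groups overlapped the controls. The log2FC was 1.40 (SE 0.49, adjusted p = 0.207) with Aroclor, 0.70 (SE 0.50, adjusted p = 0.536) with PCB 126 and 1.25 (SE 0.49, adjusted p = 0.0587) with the combined exposure. The Idi1 transcript has 41.9% GC, and after GC correction the combined-exposure value was 0.80 (adjusted p = 0.333). The uncorrected value passed the threshold without PCB 126 replicate 1 (adjusted p = 0.0426) and without combined exposure replicate 2 (adjusted p = 0.0208), and over the other alternatives its adjusted p ranged from 0.0432 to 0.585. Idi1 shares 29.1% of its windows with 5 other genes, Gm13502, Gm35570, Gm48574, Gm7654 and Gm8911, so reads of near-identical copies may be lost or misplaced in its counts.

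Sqle and Cyp51 depended on the libraries with adrenal transcripts. Sqle was at 0.888, 0.371, 0.648, 2.5 and 0.387 CPM in HFD control, at 1.13, 0.671, 1.098, 0.519 and 1.41 CPM with Aroclor, at 0.984, 0.548, 0.927, 1.33 and 0.422 CPM with PCB 126 and at 0.440, 0.511, 1.29, 2.00 and 1.19 CPM with the combined exposure. The highest Sqle levels of all 20 libraries were those of HFD control replicate 4 and combined exposure replicate 4, at 4.36 and 2.33 times the mean of the other libraries of their groups. The log2FC of Sqle with Aroclor was 0.03 (SE 0.50, adjusted p = 0.981) over all libraries and 0.72 (SE 0.41, adjusted p = 0.321) without these libraries. With PCB 126 it moved from -0.17 (adjusted p = 0.907) to 0.53 (adjusted p = 0.569), and with the combined exposure from 0.21 (adjusted p = 0.791) to 0.57 (adjusted p = 0.347). None of these passed the threshold, and the 95% interval over all libraries with the combined exposure, -0.83 to 1.25, leaves room for a large change either way.

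Cyp51 was at 18.03, 12.2, 14.6, 35.8 and 16.6 CPM in HFD control, at 15.0, 14.8, 18.7, 13.2 and 17.4 CPM with Aroclor, at 15.1, 13.8, 14.1, 14.5 and 14.4 CPM with PCB 126 and at 17.1, 18.7, 14.2, 15.0 and 16.5 CPM with the combined exposure. HFD control replicate 4, at 2.33 times the mean of the other controls, was the highest of the 20 libraries, and the next highest had 18.7 CPM. Combined exposure replicate 4, with a similar sum of cortex markers, had 15.0 CPM of Cyp51, inside the range of its group. Against all 5 controls Cyp51 was lower with each exposure, with a log2FC of -0.30 for Aroclor (SE 0.20, adjusted p = 0.431), -0.43 for PCB 126 (SE 0.20, adjusted p = 0.324) and -0.25 for the combined exposure (SE 0.20, adjusted p = 0.363). Without both libraries with adrenal transcripts the value was 0.04 for Aroclor (adjusted p = 0.883), -0.09 for PCB 126 (adjusted p = 0.772) and 0.10 for the combined exposure (adjusted p = 0.606). The PCB 126 group was tight, 14.4 ± 0.461 CPM (SD, n = 5). Cyp51 shares 2.39% of its windows with Akap9, a scaffold gene on the other strand, which rose with the combined exposure (log2FC 0.49, adjusted p = 0.0110) and had a GC-corrected value of 0.21 (adjusted p = 0.252).

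**Figure D3:**
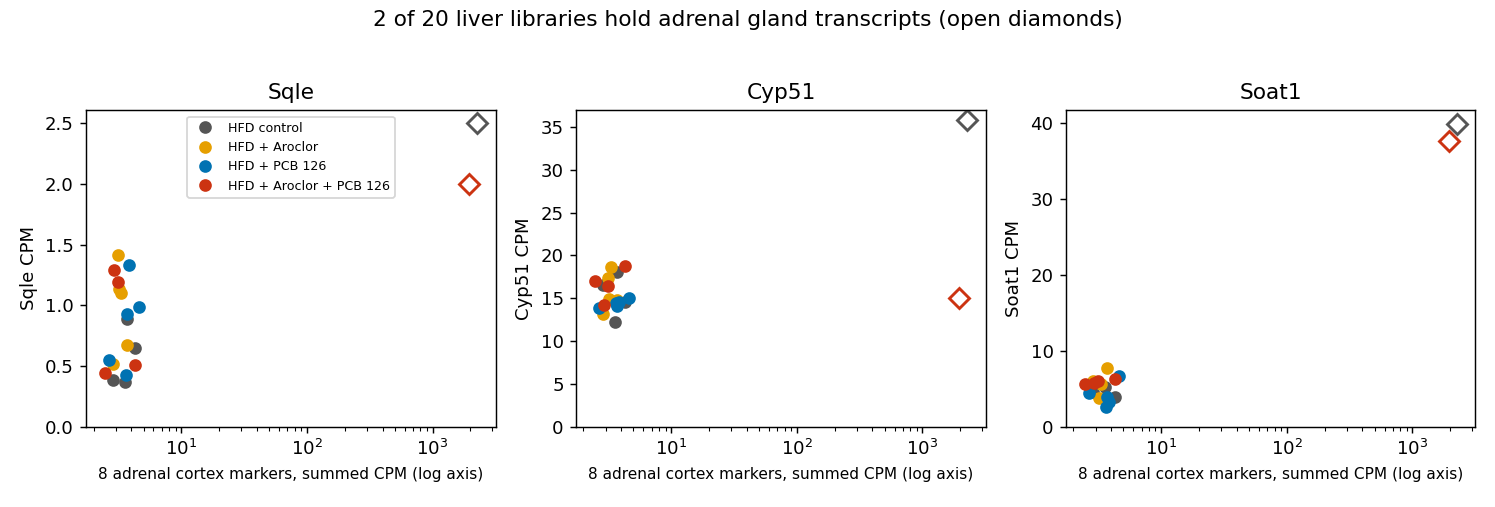
Sqle, Cyp51 and Soat1 (vertical axes, CPM, from 0) against the summed level of 8 adrenal cortex markers (horizontal log axis, CPM) in the 20 libraries, coloured by group. The open diamonds, HFD control replicate 4 and combined exposure replicate 4, sit at 2261 and 1955 CPM of the markers and the other 18 libraries at 2.46 to 4.62 CPM. Sqle and Soat1 are highest in both diamonds, and Cyp51 in 1 of them.

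Lss and Srebf2 were the least variable in abundance. Lss had 12.4, 11.3, 11.4, 11.7 and 11.7 CPM in HFD control and 13.7, 13.9, 12.6, 13.4 and 12.9 CPM with PCB 126, and these groups did not overlap, which held for 2.14% of all genes. The difference was small, a log2FC of 0.18 (SE 0.08, adjusted p = 0.297), and it did not pass the threshold. With Aroclor the Lss values were 12.3, 11.4, 11.8, 13.6 and 13.6 CPM (log2FC 0.10, SE 0.08, adjusted p = 0.522), and with the combined exposure 11.9, 13.9, 12.7, 11.1 and 12.4 CPM (log2FC 0.08, SE 0.08, adjusted p = 0.467). The 95% intervals of Lss reached at most 0.35 on the log2 scale, so a change of 1 log2 unit was outside them in each comparison with HFD control. Srebf2, the transcript of the regulator, had 19.7, 17.1, 20.8, 21.5 and 16.2 CPM in HFD control and 17.2, 17.6, 18.3, 21.99 and 19.96 CPM with Aroclor. It had 19.8, 22.4, 19.5, 18.3 and 20.5 CPM with PCB 126 and 20.4, 17.04, 18.2, 13.3 and 15.5 CPM with the combined exposure, and each exposed group overlapped the controls. Its log2FC was -0.0032 with Aroclor (adjusted p = 0.990), 0.08 with PCB 126 (adjusted p = 0.801) and -0.18 with the combined exposure (SE 0.11, adjusted p = 0.247). The Srebf2 transcript is the most GC-rich of the 7, at 57.9%, and GC correction turned the combined-exposure value to 0.36 (SE 0.12, adjusted p = 0.0628). With GC correction and without both libraries with adrenal transcripts it was 0.46 and passed the threshold (adjusted p = 0.0292, range over the alternatives 0.0292 to 0.902), so the direction of Srebf2 with the combined exposure depended on the treatment of GC content.

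Between exposed groups, 0 of 7 members passed in edgeR. For the combined exposure against PCB 126 the background was 16.7% of all genes (2 members at an unadjusted p under 0.05). DESeq2 called 1 member here, Hmgcs1, beside 3697 of 15522 genes. For the combined exposure against Aroclor the background was 0.412% (1 member unadjusted), for PCB 126 against Aroclor 0.0258% (1 unadjusted) and for the interaction 0.0% (0 unadjusted). DESeq2 called 0 members in these, beside 1343, 64 and 1 genes over all. The log2FC of the 7 genes ran from -0.25 to 0.54 for the combined exposure against PCB 126 and from -0.17 to 0.38 against Aroclor. These comparisons share groups with those against HFD control.

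The 7 genes showed little shared variation from mouse to mouse, as far as their read numbers allow. Sqle (9 to 57 counts per library) and Idi1 (2 to 20) carry counting noise, which lowers r, and weigh as much as the others in the mean level used below. Among the pairs without these genes, r around the group means ran from -0.286 (Fdft1 and Cyp51) to 0.463 (Lss and Srebf2). Over the 21 pairs of members, Pearson's r of log2 CPM around the group means ran from -0.322 to 0.564 with a median of -0.0737, and 10 pairs were above 0. The highest value, 0.564 for Sqle and Cyp51, was 0.233 over the 18 libraries without adrenal transcripts, where the range was -0.28 to 0.437. Among these 18 libraries the highest was Hmgcs1 with Lss (r = 0.437), and the libraries share depth and the GC slopes given above. Of 11337 other genes with a mean of at least 1 CPM, those whose log2 CPM followed the mean standardized level of the 7 most closely over the 20 libraries were Gas2l3 (r = 0.86), Ube2d1 (0.773), Styx (0.76), Robo1 (0.758) and Mblac2 (0.751). Around the group means they were Gas2l3 (r = 0.805), Tbc1d31 (0.731), Cables1 (0.717), Arl14ep (0.712) and Gnb1 (0.706). Of the 15 other enzymes examined, 14 had a mean of at least 1 CPM (Mvd did not), and none of these was among the genes named. The closest was Sc5d, a desaturase of a late step, at rank 90 over the 20 libraries (r = 0.634) and rank 114 around the group means (r = 0.535).

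Another 15 enzymes of cholesterol synthesis moved in both directions with the combined exposure. In edgeR 4 rose, 6 fell and 5 did not pass the threshold, a share above the 32.8% of all genes, with a median log2FC of -0.08 beside -0.001 over all genes. Mvd, the mevalonate diphosphate decarboxylase, fell by 0.95 on the log2 scale (adjusted p = 0.0340), and the mevalonate kinases Mvk and Pmvk fell by 0.89 (adjusted p = 0.00665) and 0.85 (adjusted p = 0.00223). Msmo1, which removes methyl groups from the sterol ring at a step after CYP51, rose by 0.93 (adjusted p = 0.000704). Without both libraries with adrenal transcripts 2 rose and 6 fell, against 30.4% of all genes. These differences followed transcript GC content: over 21 enzymes, members included, Spearman's rho between GC content (40.1% to 59.0%) and the log2FC was -0.71, a description across genes, and after GC correction it was -0.212. After GC correction 1 of the 15 rose and 2 fell (background 10.9%), Msmo1 at 0.61 (adjusted p = 0.0116), Fdps, the synthase that feeds FDFT1, at -0.72 (adjusted p = 0.0454) and Tm7sf2, a sterol reductase, at -0.77 (adjusted p = 0.0214). With GC correction and without these libraries 0 rose and 2 fell, against 6.99%, so Msmo1 no longer passed. Fdps and Tm7sf2 are named after their values were seen. With Aroclor and with PCB 126, 0 of the 15 passed, and Msmo1 came closest with PCB 126 (log2FC 0.69, adjusted p = 0.0548).

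**Figure D4:**
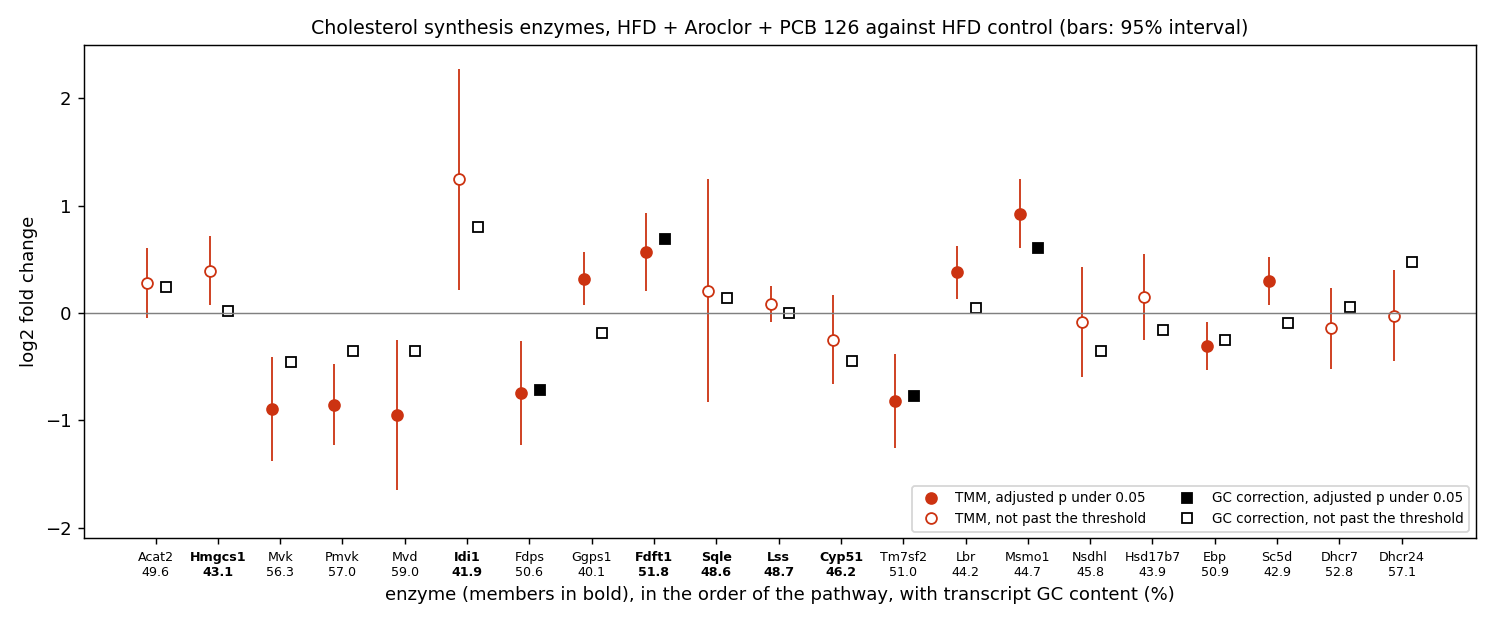
Log2 fold change of the combined exposure against HFD control (vertical axis) for 21 enzymes of cholesterol synthesis in the order of the pathway, the 6 enzymes among the members in bold, with the GC content of their transcripts in percent under each name. Red circles with 95% intervals are the values without GC correction and black squares the GC-corrected values, filled where the adjusted p was under 0.05. Mvk, Pmvk and Mvd, at 56.3% to 59.0% GC, move toward 0 under the correction, while Fdft1, Fdps, Tm7sf2 and Msmo1 stay past the threshold.

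Of 12 genes that control SREBP2, 2 rose and 2 fell with the combined exposure, a share close to the 32.8% of all genes. Mbtps2, the protease that makes the second cut, rose by 0.77 (adjusted p = 0.00331) and the ubiquitin ligase Rnf139 by 0.64 (adjusted p = 0.00122). Scap, the sterol-sensing escort, fell by 0.62 (adjusted p = 0.00212) and Ube2g2, a ubiquitin-conjugating enzyme of protein degradation, by 0.56 (adjusted p = 0.00714). After GC correction 0 of the 12 passed in edgeR (background 10.9%), with Scap at -0.01 (adjusted p = 0.962). Of 12 genes of uptake and transport, 1 rose and 4 fell, beside 32.8% of all genes: Lipa, the lysosomal acid lipase, rose by 0.46 (adjusted p = 0.0107), while Lrp1, a receptor for remnant particles, fell by 0.73 (adjusted p = 0.00802), Stard3 by 0.58 (adjusted p = 0.00320) and Scarb1, the HDL receptor, by 0.46 (adjusted p = 0.00712). After GC correction 0 rose and 2 fell, beside 10.9% of all genes. Lipa (0.04, adjusted p = 0.851) and 3 of the 4 falls lost their call, and Scarb1 (-0.55, adjusted p = 0.00580) and Stard4, a sterol carrier (-0.46, adjusted p = 0.0299), passed. With GC correction and without both libraries with adrenal transcripts 0 rose and 1 fell, beside 6.99%. With Aroclor and with PCB 126, 0 genes of either list passed in edgeR.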

How the data were processed

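Liver RNA of 5 mice per group was sequenced, 20 libraries in all. The authors used a stranded kit for polyadenylated RNA and 2 sequencing runs, and mapped reads with STAR (2.6, per the submitters' processing notes) to GRCm38.p6 and counted reads per Ensembl gene with HTSeq (0.10.0). The deposited values are these raw counts, 21780 genes in 20 columns, not normalized. Which library was in which run, and whether counting used strand, are not given in the sources used here. The number inside the label of PCB 126 replicate 2 differs from its title, and the title was followed. Among 40 pairs of libraries within groups, chi-square per degree of freedom was at least 19.7, above sampling noise.

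Genes with at least 10 counts in total (15522) were normalized with TMM and fitted in edgeR 4.0.16 (R 4.3.3) with a coefficient for each group (16 residual degrees of freedom). The quasi-likelihood test (two-sided) was used, and p-values were adjusted by Benjamini-Hochberg over every gene tested, with a threshold of 0.05. CPM use TMM library sizes, and FPKM are CPM per kilobase of exon in GENCODE M21. For GC correction, each library's deviation from the mean log2 CPM was smoothed over transcript GC content (spline with 6 degrees of freedom) and entered as an offset. Shared 75-base windows were counted between annotated transcripts. Standard errors cover counting error and the spread between mice. On simulated counts for the combined exposure against HFD control (15522 genes), 83.5% of 200 genes changed by a log2FC of 1 were recovered, and 4.57% of the calls were unchanged genes. The changed genes were drawn from those with a mean of at least 1 CPM, above the means of Sqle (0.964 CPM) and Idi1 (0.303 CPM). Neither GC slopes nor adrenal transcripts were simulated, so these rates do not carry over to the members.

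The members and the gene lists were chosen with earlier results of these data known. All 7 members are described, and of the other lists at most the 4 genes with the largest log2FC among those past the threshold, unless stated. A pair of listed genes is not reported here and was left out of the list counts. The adrenal markers and the fits without 2 libraries were chosen after seeing the data. Alternatives were RLE or upper-quartile normalization, DESeq2 1.42.0, no filter, filterByExpr, a filter of 1 FPKM, GC correction with or without length, the GC slope as a covariate, only the groups compared, a replicate block, an adjusted p under 0.01, and each library left out.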

Additional observations from a re-analysis of the deposited data

Results flagged for a closer look

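In groups of 5 libraries, a library was singled out where its gap to the nearest other library exceeded 0.710 of the group's range (Dixon's 95% limit), which chance gives in about 1 in 20 groups. Of 36 groups tested, 9 had such a library. Those of the adrenal marker sums cannot be read against that rate, because these markers were chosen after seeing the data. Among the 28 groups of the 7 members, 4 had such a library. HFD control replicate 4 accounted for 3 of these 4. Its Sqle level was 2.5 CPM against 0.371 to 0.888 CPM in the other controls, and its Cyp51 level was 35.8 CPM against 12.2 to 18.03 CPM. Its Hmgcs1 level was 38.6 CPM, below the 48.8 to 52.4 CPM of the other controls. For Fdft1, PCB 126 replicate 4 had 38.3 CPM, below the 60.4 to 68.8 CPM of the rest of its group.

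The summed adrenal cortex markers were 2261 CPM in HFD control replicate 4 and 1955 CPM in combined exposure replicate 4, against at most 4.30 CPM in the other libraries of these groups. The summed medulla markers were 1064 and 361 CPM in the same libraries and at most 0.114 CPM in the others of these groups. PCB 126 replicate 5 stood out in the medulla sum as well, at 0.387 CPM against at most 0.0596 CPM. In that library no member stood apart from its group.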

How the results depend on the processing

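With the combined exposure against HFD control, 1 of the 7 members passed (Fdft1). DESeq2, no filter, the filter of 1 FPKM (5 members tested), the replicate block and only the groups compared gave 2, filterByExpr gave 3, and an adjusted p under 0.01, the GC slope covariate and the fit without both libraries with adrenal transcripts gave 0. Leaving out each library gave 1 to 3. Against PCB 126, where 0 passed, upper-quartile normalization, DESeq2 and the filter of 1 FPKM gave 1 (Hmgcs1), and leaving out each library gave 0 to 1, the 1 being without PCB 126 replicate 1. The other comparisons gave 0 under every alternative, though with Aroclor DESeq2 gave no adjusted p for Idi1 and Sqle. Over all 15522 genes, the calls with the combined exposure numbered 5089, against 521 under the GC slope covariate and 1696 under GC correction. DESeq2 gave 5620 and the replicate block 5292, so their higher member counts came with more calls over all genes. For the combined exposure against PCB 126 the calls numbered 2589, and 3697 in DESeq2. With PCB 126 they were 18, 320 in DESeq2, 52 after GC correction, 765 with the GC slope covariate, 101 with the replicate block and 11 without both adrenal libraries, and with Aroclor 0, 135 in DESeq2, 483 with the GC slope covariate and 26 with the block. Calls over all genes with no filter, filterByExpr, the filter of 1 FPKM, upper-quartile normalization or only the groups compared are not given here. The member counts under these settings therefore stand without a share. The causes of the differences between settings were not tested.

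Of 21 log2FC against HFD control, 11 changed sign under at least 1 alternative. With Aroclor, Sqle (0.026) was -0.0042 with RLE, -0.028 with upper-quartile normalization, -0.0097 in DESeq2, -0.00096 with GC correction, -0.015 with GC and length correction and -0.22 with the GC slope covariate, and -0.18 to 0.73 leaving out each library. Lss (0.097) was -0.0094 with GC and length correction. Cyp51 (-0.30) was 0.040 without both adrenal libraries and -0.42 to 0.043 leaving out each. Srebf2 (-0.0032) was 0.15 with GC correction, 0.095 with length added, 0.033 with the GC slope covariate, 0.0014 with the replicate block, 0.15 with block and GC, 0.040 without both adrenal libraries, 0.26 with GC correction added, and -0.078 to 0.044 leaving out each.

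With PCB 126, Hmgcs1 (0.0086) was -0.00087 with RLE, -0.037 with upper-quartile normalization, -0.00076 in DESeq2, -6.5e-05 with filterByExpr, -0.012 with the filter of 1 FPKM, -0.11 with GC correction, -0.096 with length added, -0.059 with the GC slope covariate, -0.0099 with the replicate block, -0.11 with block and GC, -0.059 without both adrenal libraries, -0.21 with GC correction added, and -0.14 to 0.11 leaving out each. Sqle (-0.17) was 0.53 without both adrenal libraries, 0.50 with GC correction added, and -0.39 to 0.53 leaving out each.

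With the combined exposure, Hmgcs1 (0.39) was -0.034 without both adrenal libraries and with GC correction. Sqle (0.21) was -0.59 with the GC slope covariate and -0.17 to 0.91 leaving out each. Lss (0.083) was -0.0036 with GC correction, -0.10 with length added and -0.0042 with block and GC. Cyp51 (-0.25) was 0.098 without both adrenal libraries and -0.39 to 0.087 leaving out each. Srebf2 (-0.18) was 0.36 with GC correction, 0.29 with length added, 0.36 with block and GC, and 0.46 with GC correction without both adrenal libraries.

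Of 30 pairs of libraries with the same number, deviations from the group means correlated at -0.274 to 0.773 (median 0.0747, and -0.0142 for pairs with other numbers). Of the 30 pairs, 13 were over 0.1. The labels tie these samples by number only, so the main fit used no pairing. Whether libraries with the same number share more than the number was not tested. With the replicate block, Fdft1 was 0.60 (adjusted p = 0.00361) and Hmgcs1 0.40 (adjusted p = 0.0410) with the combined exposure. Idi1 and Sqle, with 2 to 20 and 9 to 57 counts per library, were limited by depth.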

Other observations

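Genes of cholesterol esterification and efflux also moved in both directions with the combined exposure, with 2 of 9 higher and 2 lower in edgeR (background 32.8% of all genes). Abca1, the exporter that loads HDL, rose by 0.85 on the log2 scale (adjusted p = 0.00877) and Nceh1, a cholesterol ester hydrolase, by 0.42 (adjusted p = 0.0144), while the liver X receptors Nr1h2 and Nr1h3 fell by 1.12 (adjusted p = 0.00134) and 0.70 (adjusted p = 0.00602). With the GC content corrected, Abca1 (0.70, adjusted p = 0.0465) and Nr1h2 (-0.43, adjusted p = 0.0330) passed, beside 10.9% of all genes. Without both libraries with adrenal transcripts 2 of the 9 were higher and 3 lower, and with GC correction as well 0 passed in edgeR, so both calls were lost. Soat1, which esterifies cholesterol and is abundant in the adrenal cortex, was at 39.8 and 37.6 CPM in the libraries with adrenal transcripts and at 2.53 to 7.67 CPM in the other 18. Of 8 genes of fatty acid synthesis, the branch run by SREBP1c, 1 passed with the combined exposure, Fasn, the fatty acid synthase, which fell by 0.82 (adjusted p = 0.00761) and had a GC-corrected value of -0.29 (adjusted p = 0.443).

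Sterol synthesis is known to follow the daily rhythm of feeding, and 6 of 12 clock genes passed with the combined exposure, 2 higher and 4 lower, beside 32.8% of all genes. Npas2 fell by 2.85 (adjusted p = 0.00175), Nr1d1 by 1.86 (adjusted p = 0.000487) and Dbp by 1.01 (adjusted p = 0.00767), and Cry1 rose by 1.45 (adjusted p = 0.00104). After GC correction 3 were higher and 2 lower, beside 10.9% of all genes, Npas2, Nr1d1 and Cry1 among them. With GC correction and without both libraries with adrenal transcripts 1 was higher and 2 were lower, beside 6.99%. The hour at which each mouse was killed is not in the labels, and the part of clock phase in the levels of the 7 genes was not tested.

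Cyp1a2, a classic target of the aryl hydrocarbon receptor, had a level of 1590 ± 606 CPM with PCB 126, 775 ± 186 CPM with the combined exposure and 387 ± 99.4 CPM in the controls (SD, n = 5 each). Its log2FC was 2.04 with PCB 126 (adjusted p = 0.000294) and 1.00 with the combined exposure (adjusted p = 0.00325). Cyp1a1 passed with PCB 126 (log2FC 6.93, adjusted p = 0.00950) and did not pass with the combined exposure (1.06, adjusted p = 0.502). Cyp1b1, Tiparp, Ahrr and Nqo1, also examined for this receptor, passed with neither, so Cyp1a2 does not stand for all of these genes. With PCB 126, 0 of the 7 members passed in edgeR (3 had an unadjusted p under 0.05) and 0 in DESeq2, beside 0.116% of all genes in edgeR.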
